A study of Mus musculus with 12 samples.

Results

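The genes described here encode the constitutive proteasome of mouse liver: its catalytic core, its regulatory caps, its activators and inhibitor, and the chaperones that assemble it. Members were chosen by symbol, as every gene whose name is Psm followed by a letter from a to g and a number, without the 3 immunoproteasome genes Psmb8, Psmb9 and Psmb10. This gave 45 of the 24527 gene symbols in the table, and 44 of them were among the 13204 genes that passed the filter on low counts. Polyadenylated RNA from snap-frozen liver was sequenced in 12 mice, each giving 1 library. All were 39 weeks old and came from CF1 females and B6SJL males. IVF females and IVF males came from in vitro fertilization (IVF), the joining of egg and sperm in a dish, under a protocol credited to the Jackson Laboratory. Natural females and natural males of the same cross had been conceived by mating. Each of the 4 groups held 3 libraries. The study addressed how IVF bears on the adult liver and whether this differs between the sexes.

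Proteasomes degrade proteins that carry ubiquitin chains. The barrel-shaped 20S core is a stack of outer alpha rings, which gate the entrance, and inner beta rings, of which the subunits of Psmb5, Psmb6 and Psmb7 cut proteins. The 19S cap consists of a base, whose ATPases unfold and feed in the substrate, and a lid, which removes the ubiquitin. In the liver this system controls the turnover of many short-lived and damaged proteins, and interferon can exchange the cutting subunits for those of the immunoproteasome.

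Total counts ran from 6826534 to 27832271 per library. IVF female 1 and natural female 2 had the lowest, 6826534 and 8056230, and are called the shallow libraries here; the other 10 held at least 14002847. The sex labels were checked with Xist, the RNA of the inactive X chromosome, which had 9122 to 24627 counts in the 6 female libraries and 1 to 27 in the 6 male ones, and with 4 Y-linked genes, which had 0 to 2 and 2396 to 4257 counts. Hepatocyte markers were high in all groups, with 6 of 6 passing the filter and a sum of 71373 to 105337 CPM, which are counts scaled to library size, here by the trimmed mean of M-values method (TMM). Markers of T and NK cells, of B cells and of neutrophils were low, each list summing to at most 6.47 CPM. In bulk liver, fewer cells of a type and less RNA per cell cannot be told apart. Differences were tested with edgeR's quasi-likelihood test with Benjamini-Hochberg adjustment over all 13204 genes, and p-values measure the spread between these libraries.

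Proteasome genes took a small part of every library, between 0.209% and 0.313% of its counts. The shares were highest in the 2 shallow libraries, at 0.300% and 0.313%, and lowest in natural males, at 0.209% to 0.223%. Levels were compared between genes as mean CPM per kb of transcript. Among the alpha subunits Psma4 had the highest mean, 105 CPM per kb, with a range over the libraries of 62.2 to 254. That mean includes 296 and 263 CPM in the shallow libraries, against 72.5 to 119 CPM in the other 10. Psma7 followed at 93.5 CPM per kb (77.4 to 113), so which of them was highest was not resolved. Psma8, which encodes the testis form of an alpha subunit, was lowest at 0.88 CPM per kb. Among the beta subunits Psmb6, which encodes the caspase-like cutting subunit, had the highest level, 112 CPM per kb (95.2 to 132). Of those that passed the filter Psmb3 had the lowest, 19.1 CPM per kb (9.98 to 25.3). Psmb11, the thymus form, was the only member that failed the filter: it had 2 counts in natural female 3 and 0 in the other 11 libraries, which by counting error alone allows up to 0.439 CPM in the smallest of them and 0.108 CPM in the largest.

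In the 19S base the ATPase genes ran from 34.6 CPM per kb for Psmc6 to 67.0 for Psmc1. The mean of Psmc1 includes 194 and 187 CPM in the shallow libraries, against 59.0 to 131 CPM in the other 10. Psmc3 followed at 65.0 CPM per kb (53.1 to 77.4), so which of them was highest was not resolved. Psmd4, which encodes a ubiquitin receptor, had 61.6 CPM per kb, and the scaffold gene Psmd1 had 33.1. In the lid Psmd8 was highest at 60.2 CPM per kb and Psmd13 lowest at 16.1. The 7 assembly chaperone genes had 4.19 to 12.5 CPM per kb: Psmg1 had 12.5 and Psmg4 had 4.19 among those of the core, and Psmd9 had 6.95 and Psmd10 had 4.96 among those of the base. Some subunit genes were as low, with Psma5 at 8.01 CPM per kb. Its mean includes 22.7 and 18.3 CPM in the shallow libraries, against 6.06 to 10.4 CPM in the other 10. Of the activators Psme1, a subunit of the interferon-inducible PA28 cap, had 92.4 CPM per kb, and the inhibitor gene Psmf1 had 6.07. The mean of Psme1 includes the shallow libraries, where it stood at 2.24-fold and 2.45-fold its median over the 12 libraries. The ranges of Psmb6 and Psma4 overlapped, so their order was not resolved by these libraries. Levels per kb rest on 1 transcript length per gene, and Psme2 shares sequence with a near-identical copy, Psme2b, so its level is uncertain.

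Promoters were searched because several members share control by NFE2L1, a factor that raises proteasome genes when proteolysis is blocked and binds the antioxidant response element. RefSeq windows of 300 bases, 250 before and 50 after the start (GRCm38.p6), were found for 37 of the 45 members. The core of that element, TGACNNNGC, searched on both strands, was present for 6 of these 37 genes, or 16.2%, against 14% of 27025 genes with a window. The NF-Y box CCAAT was present for 35.1% of the members and 41.1% of all genes, and TATAAA for 8.11% and 15.7%, all on both strands. A match is a description of letters and not a bound site. The matches are shown for Psmb5, the member of smallest p in the sex comparison after IVF and on average, for Psmd9, the member of smallest p in the comparison of females, and for the ATPase gene Psmc6. The motif is in capitals with 10 bases on each side, 5′ to 3′ on the strand of the gene, and in Psmc6 it reads on the opposite strand.
Psmb5 (chr14:54618024-54618052, minus strand): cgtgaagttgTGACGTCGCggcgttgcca
Psmd9 (chr5:123228149-123228177, plus strand): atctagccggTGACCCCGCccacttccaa
Psmc6 (chr14:45329587-45329615, plus strand): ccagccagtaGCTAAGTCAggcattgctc
The match lay 47 bases before the start in Psmb5, 31 in Psmd9 and 227 in Psmc6.

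The 2 shallow libraries, 1 in each female group, departed from the rest in members and in genes at large. The interquartile range of the log2 departures in IVF female 1 was 0.68 for members and 0.89 for all genes tested. For natural female 2 these were 0.75 and 0.90. In IVF female 1, 6 of 44 members were at least 2-fold above their median over the 12 libraries, against 8.91% of all genes tested. In natural female 2 the number was also 6, against 8.88%, and they were the same genes: Psma4, Psma5, Psmc1, Psmc6, Psmd7 and Psme1. A single member, Psmb4, was at least 2-fold below its median in both, against 8.26% of genes in IVF female 1 and 8.58% in natural female 2. Across the 44 members the departures in both libraries had a Pearson r of 0.86, and 35 lay on the same side of the median. These points share low depth, and the correlation is a description across genes. The shared genes, the shared side and the correlation were not worked out over all genes, so they are not shown to be particular to members.

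Psma4 (chromosome 9, 54950790 to 54958030, GRCm38) had 296 and 263 CPM in IVF female 1 and natural female 2 and 72.5 to 119 CPM in the other 10 libraries. Psmd7, a lid gene that partners the deubiquitinase of Psmd14, had 196 and 228 CPM against 59.6 to 92.1. Psmb4 (chromosome 3, 94884093 to 94886961), a structural beta subunit gene, had 30.7 and 30.2 CPM against 69.3 to 102. In each case the 2 shallow libraries stood outside the range of all others. GC content of the 6 raised members covered 37.0% to 56.2%, nearly the whole span of the tested members, 37.0% to 57.4%, and Psmb4 had 52.2%. Over the 44 members the Spearman rho of GC content with the mean departure was -0.24, and its part in the departures was not tested.

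Natural female 3 differed in another way. Psma2 (chromosome 13, 14613240 to 14674236), an alpha subunit gene, had 10.0 CPM in it and at least 35.2 CPM in each of the other 11 libraries. It was the only member at least 2-fold below its median there, against 2.64% of genes. In this library 5 of 44 members were above their median, and in IVF male 2, at the other end, 42 of 44 were. The shifts behind these counts were small. In natural female 3 the median log2 departure was -0.23 for members and -0.0029 for all genes, and in IVF male 2 it was 0.13 and 0.012. Other members hardly moved. The alpha subunit gene Psma1 ran from 46.4 to 56.0 CPM over all 12 libraries, a ratio of 1.21, and the lid gene Psmd6 had a ratio of 1.26 and the chaperone gene Psmd5 one of 1.28. The largest ratios were 6.36 for Psma8, 4.99 for Psma2 and 4.08 for Psma4.

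**Figure D1:**
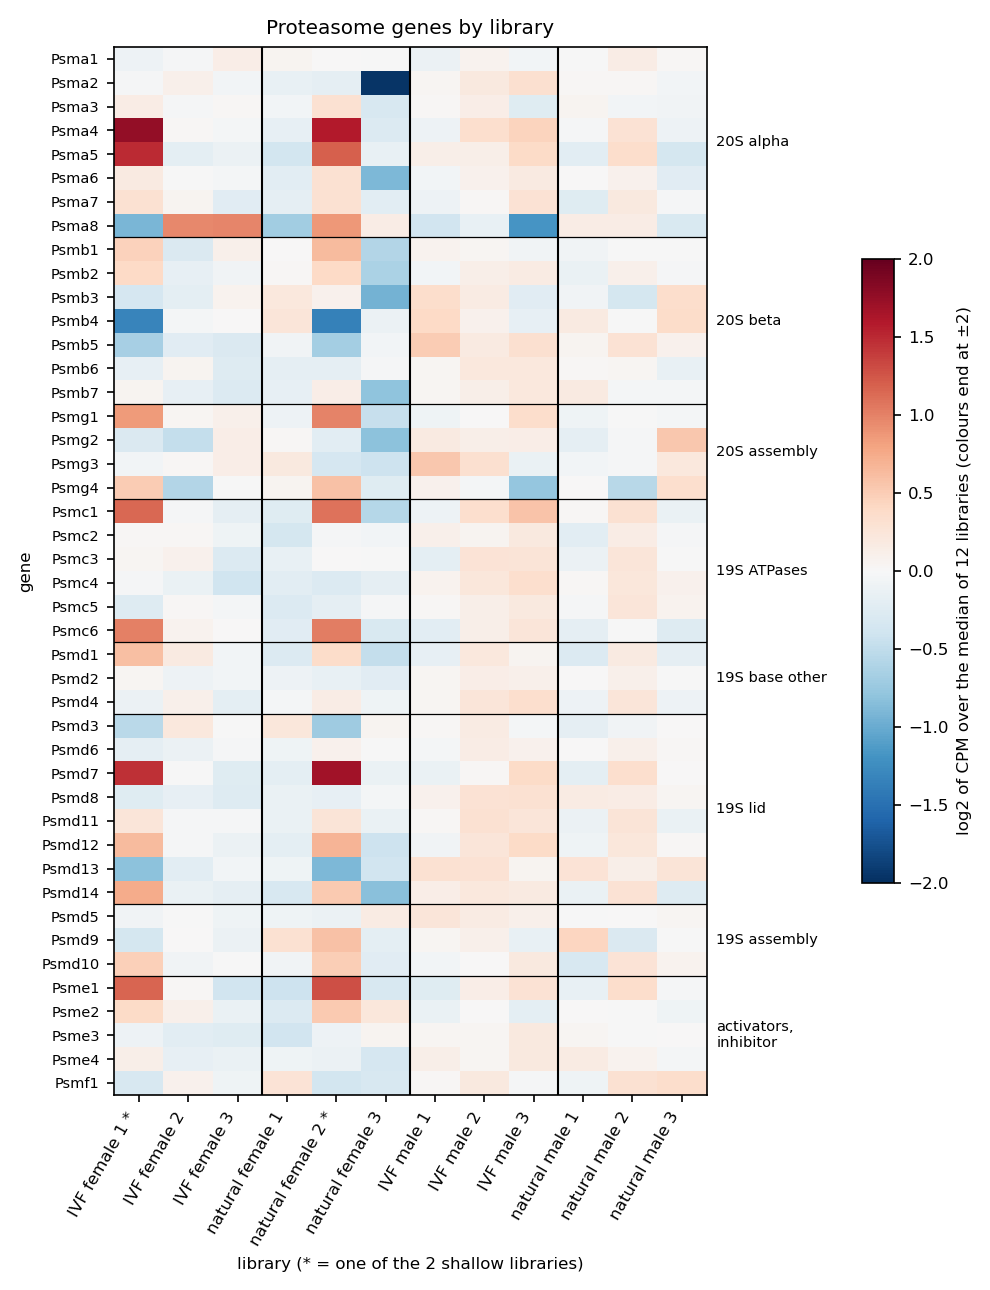
Heat map of the 44 proteasome genes that passed the filter (rows, grouped by role) in the 12 libraries (columns, grouped by sex and mode of conception), coloured by log2 of CPM over the median of the 12 libraries. The 2 shallow libraries, marked with asterisks, share 6 deep red cells, with Psma4 at 296 and 263 CPM, and the blue cell of Psma2 in natural female 3 stands for 10.0 CPM.

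**Figure D2:**
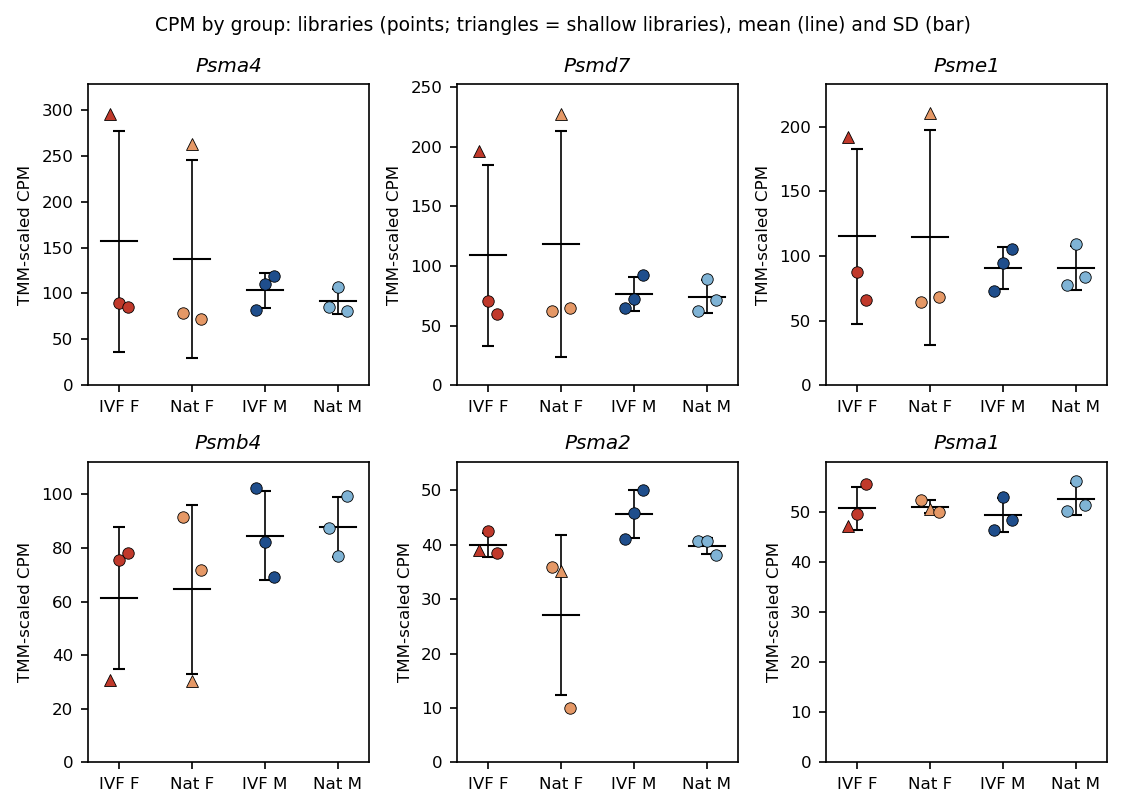
TMM-scaled CPM (vertical axes, from 0) of 6 members in the 4 groups, with points for libraries, triangles for the shallow ones, lines for the mean and bars for the SD of n = 3. Psma4, Psmd7 and Psme1 are high and Psmb4 is low in both triangles, Psma2 is low in natural female 3 alone, and Psma1 stays between 46.4 and 56.0 CPM.

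Conception by IVF was followed by no called change in the proteasome genes of females. By edgeR's quasi-likelihood test 0 of 44 members passed an adjusted p of 0.05 (background 0% of all genes), 0 had an unadjusted p under 0.05 (background 3.7%), and DESeq2 and voom called 0. The median difference of the members was 0.060 on the log2 scale, against -0.015 for all genes, and 31 of 44 were higher in IVF females. That median did not hold its sign: it was -0.010 without IVF female 1 (19 of 44 higher), -0.0035 without natural female 1 (21), -0.0094 without natural female 3 (22) and -0.0044 by library size alone (20, with all genes at -0.084), and 0.15 without natural female 2. The 95% intervals of 35 of 44 lay within a 2-fold change in either direction. The groups did not overlap for 2 members, Psma2 higher and Psmd8 lower in IVF females, or 4.55% against 7.42% of all genes.

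The smallest p-values in females belonged to Psmd9, Psma2 and Psmd1. Psmd9, a chaperone of the base, had 13.5, 17.5 and 15.9 CPM in IVF females and 21.5, 26.1 and 15.1 in natural females. All but 1 of the natural females were above the IVF females, and the log2 difference was -0.41 ± 0.24 (SE, unadjusted p = 0.116, adjusted p = 1 by edgeR). It was -0.11 without the 2 shallow libraries and -0.57 to -0.22 when 1 library was left out. Psma2 had 39.0, 42.5 and 38.5 CPM in IVF females and 35.9, 35.2 and 10.0 in natural females, a log2 difference of 0.57 ± 0.35 (SE, adjusted p = 1 by edgeR) that was 0.19 without natural female 3. Psmd1, the scaffold of the base, had 151, 113 and 95.8 CPM in IVF females and 82.5, 129 and 71.7 in natural females (0.35 ± 0.25 SE, adjusted p = 1 by edgeR). Its highest value in each group came from the shallow library, and the difference was 0.17 to 0.64 when 1 library was left out. By role, 7 of 8 alpha subunit genes and 6 of 6 ATPase genes were on the higher side in IVF females, with medians of 0.20 and 0.097, and none passed the test.

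Males gave the same count. By edgeR's quasi-likelihood test 0 of 44 members passed an adjusted p of 0.05 in IVF against natural males (background 0.00757%), 0 had an unadjusted p under 0.05 (background 2.69%), and DESeq2 and voom called 0. The median difference was 0.095, against 0.0098 for all genes, with 35 of 44 higher in IVF males and 37 of 44 intervals within 2-fold. Groups did not overlap for 4 members, all higher in IVF males, namely Psma2, Psmb6, Psmd5 and Psme3, or 9.09% against 8.91% of all genes. Scaled by library size alone, the median of all genes moved to 0.14 and that of the members to 0.23. A change of scaling shifts all genes of a comparison nearly alike, so it cannot test the distance between these medians.

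Psmb6 had the smallest p in males. It stood at 93.2, 104 and 105 CPM in IVF males and at 91.8, 92.8 and 82.0 in natural males. Every IVF male was above every natural male, by a small margin, and the log2 difference was 0.18 ± 0.15 (SE, unadjusted p = 0.245, adjusted p = 1 by edgeR). Psmd5, a chaperone of the base, had 28.5, 26.9 and 26.0 CPM against 23.9, 24.2 and 24.7, a log2 difference of 0.16 ± 0.14 (SE). Psmd4 had 81.2, 93.8 and 100 CPM in IVF males and 73.5, 94.4 and 74.1 in natural males, with overlap, and differed by 0.19 ± 0.17 (SE). The sum of the hepatocyte markers was lower in IVF males, at 71373 to 80389 CPM, than in natural males, at 84946 to 94265 CPM, and its part in these differences was not tested. Of the 8 lid genes 8 were on the higher side in IVF males, with a median of 0.12, and 6 of 6 ATPase genes likewise, with 0.12.

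The effect of IVF was not shown to differ between the sexes for any member. The test of that difference, male effect minus female effect, gave 0 of 44 at an adjusted p of 0.05 (background 0%), 0 at an unadjusted p under 0.05 (background 3.87%), and 0 with DESeq2 and with voom. The smallest p was 0.178, for Psma8, whose difference of -1.16 ± 0.81 (SE) rests on 4 to 68 counts per library. Without the 2 shallow libraries it was -2.02 ± 0.63 (SE, unadjusted p = 0.00966, adjusted p = 0.997 by edgeR), and leaving out 1 library gave -1.65 to -0.77. Psmb5 followed with 0.34 ± 0.29 (SE) and Psmd8 with 0.23 ± 0.20 (SE). Averaged over both sexes the effect of IVF was again called for 0 members (background 0.00757%), with 0 at an unadjusted p under 0.05 (background 2.69%) and 0 by DESeq2 and voom. Its median was 0.056, against -0.0038 for all genes. The average narrowed the intervals, and 42 of 44 lay within 2-fold. Psma2 had the smallest p, with 0.38 ± 0.25 (SE, adjusted p = 1 by edgeR), before Psmd9 with -0.24 ± 0.17 (SE) and Psmd1 with 0.24 ± 0.18 (SE).

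**Figure D3:**
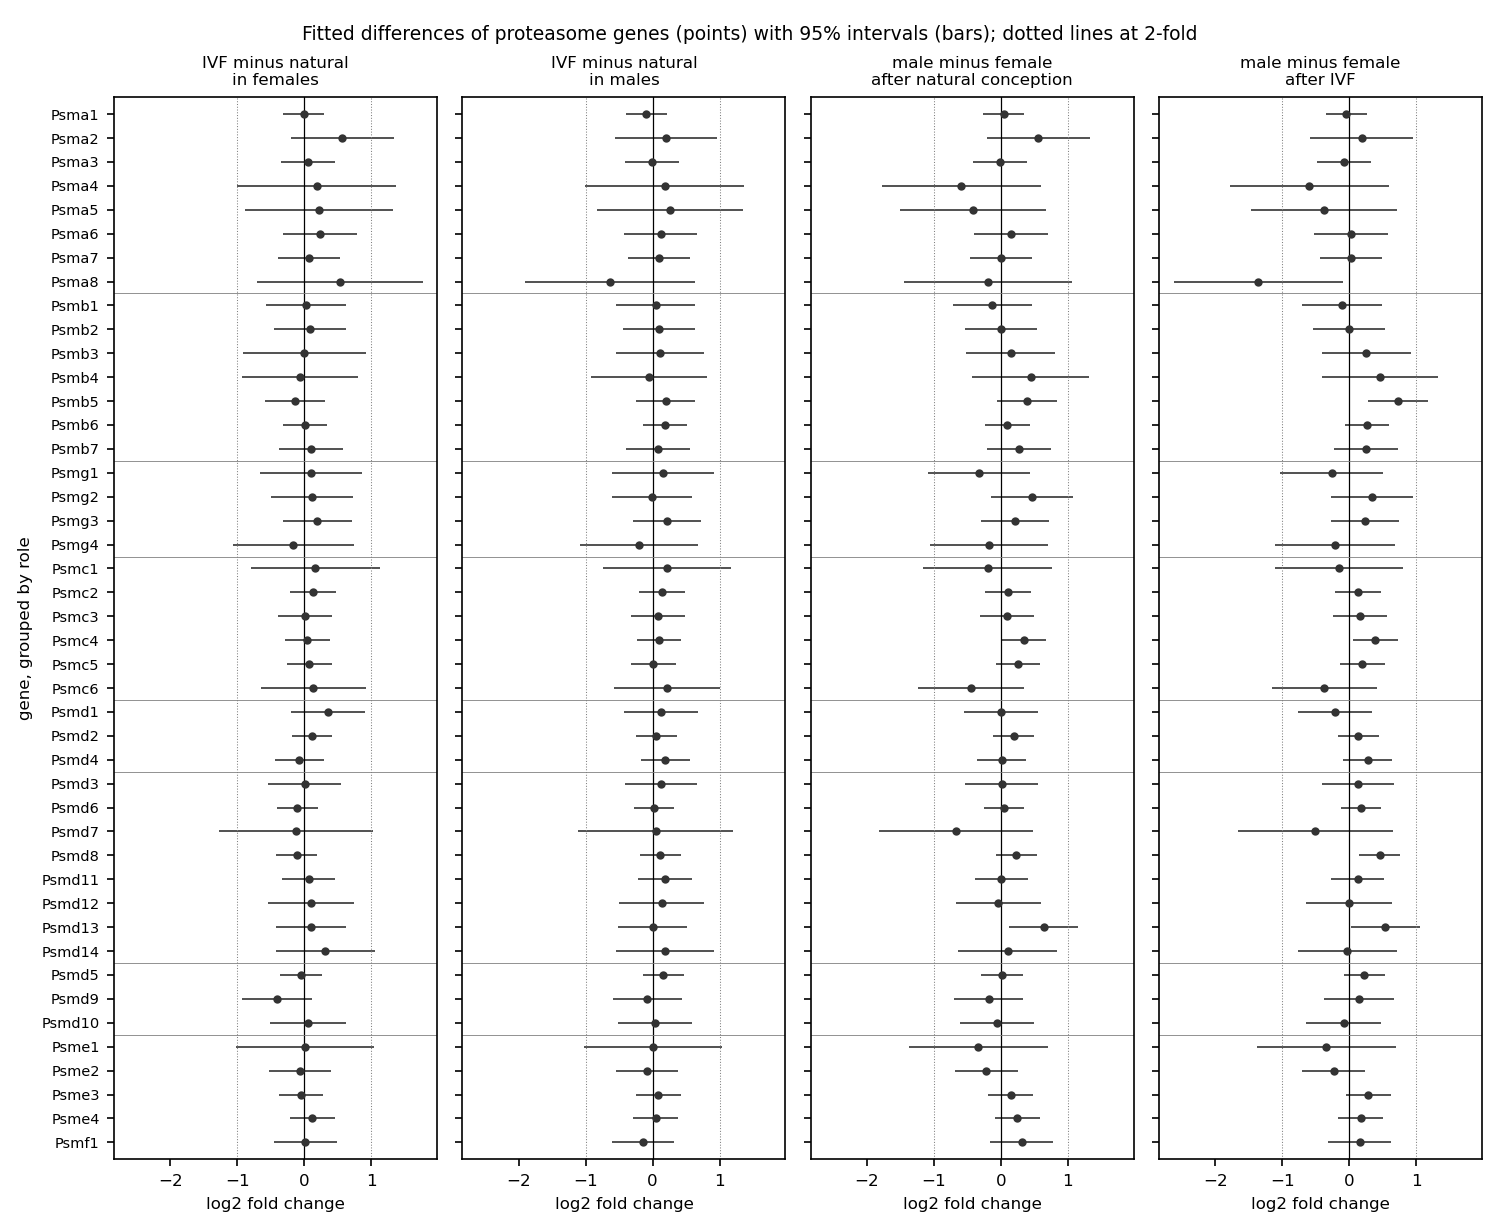
Log2 fold changes (horizontal axes) of the 44 members, in rows grouped by role, for IVF minus natural in females and in males and for male minus female after natural conception and after IVF, as points with 95% intervals as bars and dotted lines at 2-fold. In females 35 of 44 intervals for IVF lie between the dotted lines, in males 37, and the intervals of Psmb5, Psmd8, Psmc4 and Psmd13 lie above 0 after IVF.

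Males and females differed in more genes than the modes of conception did. After natural conception 0 of 44 members passed an adjusted p of 0.05 by edgeR (background 1.77%), and DESeq2 and voom called 0. At an unadjusted p under 0.05 there were 2, Psmd13 and Psmc4, both higher in males (background 14.9%). Groups did not overlap for 7 members, all higher in males, or 15.9% against 20% of all genes. After IVF edgeR called 0 of 44 (background 2.19%), voom called 0 and DESeq2 called 2, Psmd8 and Psmb5. The backgrounds are edgeR's, and no share of all genes is given for DESeq2 or voom. At an unadjusted p under 0.05 there were 5 by edgeR (background 14.9%), of which Psmb5, Psmd8, Psmc4 and Psmd13 were higher and Psma8 lower in males. Here 8 members, or 18.2%, did not overlap, all higher in males, against 21.8% of all genes. Both comparisons thus gave shares of members below those of all genes. They share no libraries with each other, but each shares its libraries with the comparisons of IVF.

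A further contrast, the sex difference averaged over both modes of conception, was added after these results had been seen. It called 1 of 44 members by edgeR's quasi-likelihood test, Psmb5, against a background of 7.2% of all genes. DESeq2 called 4 and voom 1, for which no share of all genes is given. At an unadjusted p under 0.05 there were 4 members, all higher in males, or 9.09% against a background of 23.6%. The same 4, Psmb5, Psmd13, Psmd8 and Psmc4, had all 6 males above all 6 females, against 5.75% of all genes without overlap in either direction.

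Psmb5 (chromosome 14, 54614119 to 54618022, minus strand) encodes the chymotrypsin-like cutting subunit, the main target of proteasome inhibitor drugs. It had 18.3, 24.8 and 23.6 CPM in IVF females, 27.8, 18.0 and 27.8 in natural females, 41.2, 33.0 and 36.4 in IVF males and 30.3, 35.6 and 30.8 in natural males. The lowest male was above the highest female, and the 2 lowest values were those of the shallow libraries. The averaged log2 difference was 0.56 ± 0.14 (SE), 1.47-fold with a 95% interval of 1.18 to 1.83 (adjusted p = 0.0402 by edgeR). It was 0.72 ± 0.20 (SE) after IVF and 0.39 ± 0.20 (SE) after natural conception, with adjusted p = 0.105 and 0.400 by edgeR.

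The call of Psmb5 was close to the threshold. Without the 2 shallow libraries the averaged difference was 0.38 (adjusted p = 0.0511 by edgeR), and by library size alone 0.34 (adjusted p = 0.195 by edgeR). Leaving out any 1 library other than natural female 1 also ended the call, with adjusted p-values from edgeR between 0.0516 without natural female 3 and 0.0943 without natural male 2. The other such values were 0.0868, 0.0646 and 0.0647 without IVF females 1, 2 and 3, 0.0526 without natural female 2, 0.0877, 0.0565 and 0.0851 without IVF males 1, 2 and 3, and 0.0614 and 0.0812 without natural males 1 and 3, all by edgeR. The difference stayed positive in all 21 settings, from 0.34 to 0.61. In the annotation Mir686 overlaps Psmb5 on the same strand, over 109 bases of exon.

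Psmd13 (chromosome 7, 140881968 to 140898643, plus strand) encodes a lid subunit. It had 18.7, 28.6 and 32.0 CPM in IVF females, 31.1, 17.6 and 25.4 in natural females, 41.1, 40.5 and 34.4 in IVF males and 40.1, 36.1 and 39.6 in natural males. Again the lowest female values came from the shallow libraries, and no female reached the lowest male. The averaged difference was 0.59 ± 0.17 (SE, adjusted p = 0.0556 by edgeR), and 0.38 without the shallow libraries (adjusted p = 0.0525 by edgeR). It was called by DESeq2 (adjusted p = 0.0126), with a correction for GC content (adjusted p = 0.0250 by edgeR) and without natural female 1 (0.69, adjusted p = 0.0395 by edgeR). Exons of Sirt3 on the opposite strand overlap it over 342 bases, and since the use of strand was not stated, their reads cannot be told apart there.

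Psmd8 (chromosome 7, 29174188 to 29180701, minus strand), another lid gene, had 77.2, 81.6 and 77.0 CPM in IVF females, 83.8, 82.0 and 89.2 in natural females, 97.4, 113 and 113 in IVF males and 103, 102 and 94.5 in natural males. Here the shallow libraries lay within the range of the other females. The averaged difference was 0.34 ± 0.10 (SE, adjusted p = 0.0597 by edgeR, 0.00122 by DESeq2). Psmc4 (chromosome 7, 28041707 to 28050101, minus strand), an ATPase gene, had 61.4, 57.2 and 47.7 CPM in IVF females and 53.9, 51.9 and 55.3 in natural females. Its males had 65.8, 73.2 and 79.0 CPM after IVF and 64.0, 73.2 and 66.9 after natural conception. All males were above all females, with an averaged difference of 0.37 ± 0.11 (SE, adjusted p = 0.0648 by edgeR, 0.00988 by DESeq2).

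**Figure D4:**
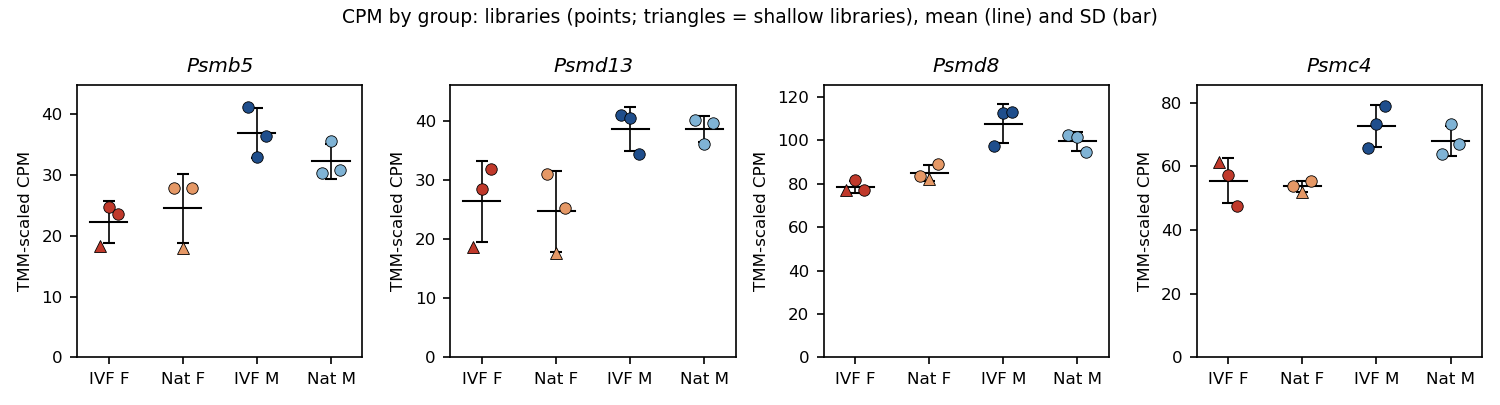
TMM-scaled CPM (vertical axes, from 0) of Psmb5, Psmd13, Psmd8 and Psmc4 in the 4 groups, with points for libraries, triangles for the shallow ones, lines for the mean and bars for the SD of n = 3. All male points lie above all female points, and the triangles are the lowest female values of Psmb5 (18.3 and 18.0 CPM) and Psmd13 (18.7 and 17.6 CPM) but not of Psmc4 in IVF females.

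Summaries over all 44 members depended on which female libraries were kept. The median sex difference of the 44 members was 0.029 after natural conception, against -0.024 for all genes, with 27 higher in males. Without the 2 shallow libraries it was 0.19, against -0.0021 for all genes, with 40 of 44 higher in males. That fit keeps natural females 1 and 3 alone in their group. With only natural female 3 left out, the median was -0.038, with 21 of 44 higher in males. After IVF the median went from 0.13, with 27 higher, to 0.15, with 37 higher, without the 2 shallow libraries. Counts of calls stayed at 0 in both comparisons without these libraries, and in the averaged contrast 9 members were higher and 1 lower at an unadjusted p under 0.05, against 26.3% of all genes in either direction, with 0 called and a smallest adjusted p of 0.0511 by edgeR. Scaled by library size alone, the median of all genes moved to -0.34 after natural conception and -0.22 in the averaged contrast. Those of the members moved to -0.28 and -0.12, a shift that members and all genes share by construction.

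By role, 6 of 7 beta subunit genes that passed the filter were higher in males in the averaged contrast, with a median of 0.20. The alpha subunit genes were split, 4 of 8, with a median of -0.021. Of the 6 ATPase genes 4 were higher, with a median of 0.12, and of the 8 lid genes 6, with 0.070. The summed level of the beta ring was 338 ± 5.9 CPM (SD, n = 3) in IVF females, 336 ± 37.9 in natural females, 403 ± 12.0 in IVF males and 380 ± 6.1 in natural males. Every male library, at 373 to 415 CPM, was above every female one, at 293 to 366 CPM. This order rests on the scaling: by library size alone the means were 355 CPM in IVF females, 368 in natural females, 393 in IVF males and 338 in natural males, so that it turned after natural conception. The hepatocyte markers summed to 71373 to 94265 CPM in males and 88551 to 105337 in females and the Kupffer cell markers to 142 to 280 and 277 to 425, and the part of either in the sex differences was not tested. The alpha ring summed to 419 ± 144, 373 ± 160, 366 ± 39.7 and 341 ± 33.8 CPM in the same order, with the female means carried by the shallow libraries at 585 and 556 CPM. Over all members the sums were 2510 ± 461 CPM in IVF females, 2397 ± 551 in natural females, 2584 ± 175 in IVF males and 2422 ± 162 in natural males, and the ranges overlapped.

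Among the 3 constitutive cutting subunits, Psmb5 was called in the averaged sex contrast as above. Psmb6 and Psmb7 did not pass at an unadjusted p under 0.05 in any comparison. Their means were also higher in males. Psmb6 had 101 and 88.9 CPM in IVF and natural males against 83.6 and 83.0 in IVF and natural females. For Psmb7 these were 74.8 and 70.6 against 63.1 and 58.8. Psmb5 was not tested against either gene. Psmb7, the trypsin-like subunit gene, had 71.5, 61.1 and 56.6 CPM in IVF females, 61.4, 75.6 and 39.2 in natural females, 70.4, 74.4 and 79.5 in IVF males and 78.1, 67.0 and 66.7 in natural males. Its groups overlapped. Exons of Nek6 overlap it on the opposite strand over 405 bases.

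The immunoproteasome genes, which are not members, showed another pattern. Psmb8, whose product replaces that of Psmb5, had 28.8, 21.7 and 19.3 CPM in IVF males and 24.3, 56.4 and 48.1 in natural males, with overlap. The log2 difference was -0.88 ± 0.29 (SE, unadjusted p = 0.0109, adjusted p = 1 by edgeR). In females it was 0.13 ± 0.29 (SE), and the effect in males minus that in females was -1.01 ± 0.41 (SE, unadjusted p = 0.0307, adjusted p = 1 by edgeR). Psmb9 gave -1.22 ± 0.53 (SE, unadjusted p = 0.0391) in that test and Psmb10 gave -0.45 ± 0.46 (SE), so none of the 3 passed. As a ratio per kb, Psmb8 to Psmb5 was 0.72 ± 0.12 (SD, n = 3) in IVF females, 0.59 ± 0.0075 in natural females, 0.35 ± 0.049 in IVF males and 0.73 ± 0.25 in natural males. Every IVF male, at 0.29 to 0.39, was below every other library, the nearest being natural male 1 at 0.44. This separation held for Psmb8 to Psmb5 only. The ratio of Psmb9 to Psmb6 was 0.037 to 0.064 for IVF males, and natural female 3 lay below them at 0.029. For Psmb10 to Psmb7 the IVF males had 0.16 to 0.22. Natural female 2 was lower, at 0.11, and natural male 1 lay among them at 0.19. The 6 Kupffer cell markers, all of which passed the filter, summed to 142 to 200 CPM in IVF males and 260 to 280 CPM in natural males, against 282 to 425 in IVF females and 277 to 350 in natural females. Their part in the level of Psmb8 was not tested.

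**Figure D5:**
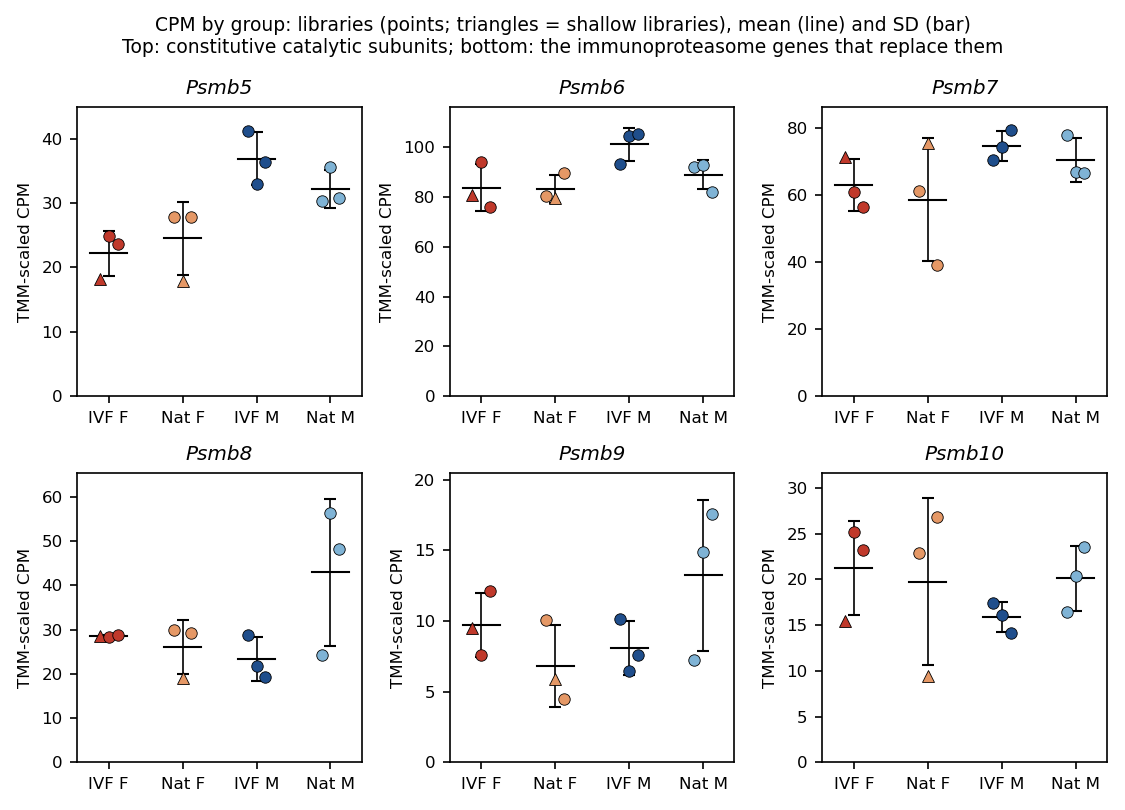
TMM-scaled CPM (vertical axes, from 0) of the constitutive cutting subunit genes Psmb5, Psmb6 and Psmb7 (top) and of the immunoproteasome genes Psmb8, Psmb9 and Psmb10 (bottom) in the 4 groups, with points for libraries, triangles for the shallow ones, lines for the mean and bars for the SD of n = 3. Psmb5 is higher in all males than in all females, while Psmb8 in IVF males, at 19.3 to 28.8 CPM, overlaps natural males at 24.3 to 56.4 CPM.

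Genes that work with the proteasome were described from lists. The 44 tested genes of 5 lists included the 3 immunoproteasome genes above. For IVF in females, in males, on average and for the difference between the sexes in that effect, edgeR, DESeq2 and voom called 0. At an unadjusted p under 0.05 by edgeR there were 0, 1, 0 and 2, against 3.7%, 2.69%, 2.69% and 3.87% of all genes. The 1 was Psmb8 and the 2 were Psmb8 and Psmb9, so none came from the other lists. For the sex difference edgeR and voom called 0 after natural conception and 0 after IVF, and DESeq2 called 1 in each (Zfand5 and Irf1). An unadjusted p under 0.05 by edgeR was found for 9 and 5 of the 44, against 14.9% of all genes in each comparison. Of the 9, 2 were immunoproteasome genes. In the averaged sex contrast edgeR called 3 of the 44, 1 in each of 3 lists, against the 7.2% of all genes that it called. DESeq2 called 5 and voom 2, for which no share of all genes is given.

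Of 9 genes that control proteasome genes, Syvn1, which encodes the ubiquitin ligase of the endoplasmic reticulum that acts on NFE2L1, was higher in males. It had 106, 51.0 and 76.8 CPM in IVF females, 49.9, 31.0 and 69.6 in natural females, 225, 74.4 and 372 in IVF males and 79.1, 103 and 172 in natural males. The male values spread widely and overlapped those of females, with a difference of 1.38 ± 0.37 (SE, adjusted p = 0.0446 by edgeR). Nfe2l1 and Nfe2l2 were not called by edgeR in any comparison. Of 10 genes of the VCP unfoldase and its cofactors, Ufd1l, a cofactor that binds ubiquitin, was called, with 12.2 to 16.8 CPM in the 6 females and 18.1 to 23.6 in the 6 males without overlap (0.41 ± 0.11 SE, adjusted p = 0.0484 by edgeR).

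Of 7 genes of the interferon axis that controls the immunoproteasome, the transcription factor gene Irf1 fell in males. It ran from 34.6 to 53.4 CPM in females and 18.8 to 36.0 CPM in males, with IVF male 1 the only male above the lowest female (-0.70 ± 0.18 SE, adjusted p = 0.0352 by edgeR). The Kupffer cell markers, which also summed lower in males (142 to 280 CPM against 277 to 425), overlapped slightly, and their part in this difference was not tested. Of 15 components and partners without a Psm symbol edgeR called 0, and DESeq2 called Zfand5, which encodes a proteasome-binding zinc finger protein, after natural conception and in the averaged contrast. Its averaged difference was -0.42 ± 0.12 (SE, adjusted p = 0.0648 by edgeR).

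These 3 calls also lay near the threshold. The call of Ufd1l was lost without any 1 library (adjusted p from 0.0507 without natural female 1 to 0.118 without natural male 3, by edgeR). It was also lost by library size alone (0.20, adjusted p = 0.219 by edgeR). Without the 2 shallow libraries together it was kept (0.41, adjusted p = 0.0482 by edgeR). With 1 library left out, the call of Syvn1 was kept without natural female 3 and without IVF male 2 and otherwise lost, with adjusted p up to 0.115 by edgeR without natural male 3, and was at 0.0669 without the 2 shallow libraries. That of Irf1 was kept without IVF male 1 and without natural male 2 and otherwise lost, with adjusted p up to 0.0936 by edgeR without IVF male 3, and was at 0.0615 without the shallow libraries. Directions held in all 21 settings for these 3 genes.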

How the data were processed

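Liver RNA of 12 mice was measured by messenger RNA sequencing, and the deposited values were whole-number read counts per gene symbol in 1 table. Trimmomatic 0.32, STAR 2.3.0e, featureCounts 1.5.0 and the build mm10 were named, per the submitters' processing notes; the gene annotation, strandedness and how multiply matching reads were handled are not given in the sources used here. Columns were matched to samples by title. The members, lists and tests were chosen with earlier results of these data known.

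Counts were filtered with filterByExpr by group, scaled by TMM and fitted with 1 mean per group over 12 libraries (edgeR 4.0.16 quasi-likelihood test, R 4.3.3), and a gene was called at an adjusted p under 0.05. A fitted difference is IVF minus natural, or male minus female, and its SE is the difference divided by the root of the F statistic. DESeq2 1.42.0 and voom of limma 3.58.1 were alternatives. CPM are TMM-scaled, and total counts gave the limits for a count of 0, which cover counting error only. Positions, transcript lengths and GC content came from GENCODE release M21 (GRCm38), with 23805 symbols matched directly, 343 by a synonym and 379 not. The transcript was the longest of the best APPRIS class. Library departures used log2 of CPM plus 0.25. The code was tested on simulated data.

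Named were called members, or else the 3 of smallest p in each comparison, the highest and lowest level per role, the widest and steadiest members, the cutting subunits, and each list's called gene or gene of smallest p. Other named members, such as Psmd7, Psmb4 and Psma5, were chosen after their values were seen, as were the averaged sex contrast and its alternatives. Some genes of the lists are not reported here.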

Additional observations from a re-analysis of the deposited data

How the results depend on the processing

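Of the differences followed gene by gene, 785 values under an alternative kept their direction and side of the threshold, 60 lost the threshold, 13 gained it and 5 turned. Most of these differences were not called in the main fit, so the first number says little about the calls. In the averaged sex contrast the call was kept in 7 of 21 alternatives for Psmb5, 7 for Syvn1, 5 for Ufd1l and 10 for Irf1. The count of members called for IVF and for sex after natural conception was 0 in every alternative run. For sex after IVF it was 2 with DESeq2 and 0 to 1 when 1 library was left out. For the averaged sex contrast it was 0 by library size alone, 0 without the filter, 0 without the 2 shallow libraries, 4 with DESeq2, 4 at an adjusted p under 0.1, 2 with the GC correction and 0 to 2 when 1 library was left out. The cause was not tested.

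The members' median moved by library size alone to 0.22 for the difference between the sexes in the IVF effect, -0.28 for sex after natural conception and -0.12 for the averaged sex contrast, where all genes moved alike. Leaving out 1 library gave -0.13 to 0.11 for the first and -0.038 to 0.21 for the second, and without the shallow libraries the second was 0.19. The turned values were for IVF in females. Psmb8 gave -0.031 without the shallow libraries and -0.048 without natural female 2, and -0.048 to 0.24 when 1 library was left out. Psmb10 gave -0.027 without the shallow libraries, -0.033 without IVF female 2 and -0.22 without natural female 2, and -0.22 to 0.41 when 1 library was left out.

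By library size alone the sums of natural males moved to 2151 CPM for all members, 303 for base genes other than ATPases, 44.0 for base chaperones, 428 for the lid, 338 for the beta ring, 399 for ATPases, 310 for activators and 303 for the alpha ring. Those of IVF females moved to 48.6 for base chaperones and 355 for the beta ring, and the beta ring of natural females was at 368.

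With 3 libraries a group, differences well under 2-fold were within the intervals of most members, and the 2 shallow libraries are both female, so depth and sex partly move together. Psma8 and Psmg4 rest on few counts. No paired analysis was possible because replicate numbers here follow accession order. The titles of IVF female 1 and IVF male 2 begin their animal numbers alike, the labels do not say why, and a single shared number cannot make a block.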
